A study of Mus musculus with 6 samples.

Results

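The interferon regulatory factors *Irf1*, *Irf2*, *Irf3*, *Irf4*, *Irf5*, *Irf7*, *Irf8* and *Irf9* were examined in the inguinal adipose tissue (iAT) of 6-day-old mice. They are 8 of the 19831 genes in the table, and they were chosen by gene symbol, not by their values. RNA of iAT was sequenced from 3 wild-type (WT) and 3 *Npffr1*-KO samples, both taken at postnatal day 6. *Npffr1* encodes a receptor for neuropeptide FF. Both genotypes were kept under specific pathogen-free conditions. For mice of this age, the methods of the paper name male C57BL/6 animals, without saying whether these samples came from them. How the deletion was made, which cells it covers and whether animals were pooled is not stated.

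Interferon regulatory factors are transcription factors that bind DNA through a shared tryptophan-rich domain and recognise GAAA repeats, the core of the interferon-stimulated response element (ISRE). *Irf3* and *Irf7* link the sensing of foreign or misplaced nucleic acid to the transcription of type I interferons, while *Irf9* is the DNA-binding part of the complex with STAT proteins that carries the interferon signal back to the nucleus. *Irf1*, *Irf7*, *Irf8* and *Irf9* are themselves induced by interferons, and *Irf4*, *Irf5* and *Irf8* shape lymphocytes, macrophages and dendritic cells. In adipocytes, *Irf4* is also known as a fasting-induced regulator of lipolysis and of the thermogenic program.

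The table gives 1 value per genotype for each gene, a read count normalized for library size, so no spread between animals can be read from these values. Summed over all genes, they came to 23137343 in WT and 23640005 in *Npffr1*-KO. Whole reads of each library could be worked out from the table for 10709 genes, mostly those with few reads. For the targeted gene *Npffr1* these were 1, 0 and 5 reads in the WT libraries and 0, 0 and 0 reads in the KO libraries. The search gave no accepted combination of reads for any of the 8 factors: 6 had a value of 1000 or more in at least 1 genotype and were not searched, and for *Irf4* and *Irf7* the expected number of chance matches, 0.122 and 0.036, was above the limit of 0.01. Differences of the 8 factors between genotypes are therefore values with no test.

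All 8 factors were transcribed in iAT of both genotypes. Because longer transcripts gather more reads, their levels were compared per kilobase of the gene length that the table lists, which runs from 1835 bases for *Irf7* to 4683 for *Irf4*. *Irf1*, an activator induced above all by interferon gamma, came first, with 932 normalized counts per kilobase in WT. *Irf3*, which stays in the cytoplasm until it is phosphorylated, had 785 normalized counts per kilobase in WT. *Irf8*, needed for monocytes, dendritic cells and B cells, came next with 589.

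*Irf2*, a repressor that competes with *Irf1* for the same sites, had 548 normalized counts per kilobase in WT, and *Irf9* had 535. *Irf5*, which drives inflammatory cytokines in macrophages and is also used by B cells, had 441. The last were *Irf7*, the amplifier of the type I interferon response, with 347 normalized counts per kilobase, and *Irf4*, a factor of activated lymphocytes and plasma cells, with 115. Among all genes of the table, the WT level per kilobase of *Irf4* lay above 51.7% and that of *Irf1* above 89.6%.

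Neighbours in this WT order were told apart by their 95% counting intervals, except *Irf2* and *Irf9*, whose intervals overlapped. These intervals cover counting error only, and not the spread between animals. The widest step was the last one, with *Irf7* 3.03-fold above *Irf4* per kilobase in WT and 2.89-fold in *Npffr1*-KO.

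In *Npffr1*-KO the order per kilobase changed at 1 place. *Irf5* stood below *Irf2* and *Irf9* in WT and above both in *Npffr1*-KO, where it had 567 normalized counts per kilobase, *Irf2* 532 and *Irf9* 531. The counting intervals of *Irf5* and *Irf2* overlapped there, as did those of *Irf2* and *Irf9*. The first 3 places, *Irf1*, *Irf3* and *Irf8*, and the last 2, *Irf7* and *Irf4*, were the same in both genotypes.

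**Figure D1:**
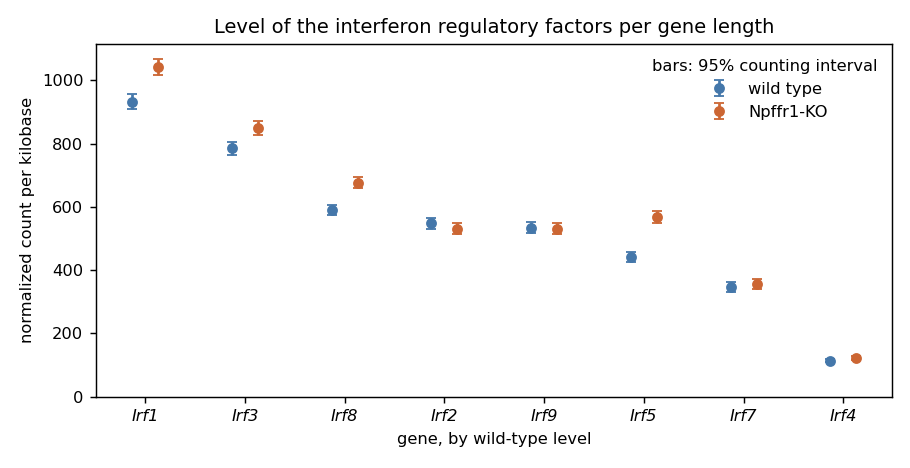
The level of each interferon regulatory factor in normalized counts per kilobase (vertical axis) in wild type (blue) and *Npffr1*-KO (orange), 1 value per genotype, with 95% counting intervals as bars. *Irf1* is highest in both genotypes, with 932 and 1042, and *Irf4* is lowest, with 115 and 123.

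The comparison of the genotypes asks whether the loss of *Npffr1* went along with other levels of these factors. *Irf5* had 927 normalized counts in WT and 1192 in *Npffr1*-KO, a value 1.29-fold higher. Of the 8 factors, 1 was at least 1.2-fold higher in *Npffr1*-KO and 0 were at least 1.2-fold lower. Among the 15309 genes averaging 10 or more normalized counts, 16.8% were at least 1.2-fold higher and 15.6% at least 1.2-fold lower, and 1 of 8 does not exceed that background. The fold of 1.2 was chosen after the values of the factors were seen.

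The 3 factors of lymphoid and myeloid cells all had the higher value in *Npffr1*-KO. For *Irf5* the log2 ratio of the *Npffr1*-KO to the WT value was 0.36, with a 95% counting interval from 0.29 to 0.43. *Irf8* had 1684 normalized counts in WT and 1933 in *Npffr1*-KO, a log2 ratio of 0.20 with an interval from 0.15 to 0.25. *Irf4* had 536 normalized counts in WT and 575 in *Npffr1*-KO, a log2 ratio of 0.10. Its interval, from 0.004 to 0.199, only just left out 0. Summed, the 3 factors came to 3147 normalized counts in WT and 3701 in *Npffr1*-KO.

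The 4 broadly expressed factors were split. *Irf1* had 1999 normalized counts in WT and 2235 in *Npffr1*-KO, a log2 ratio of 0.16 with a counting interval from 0.11 to 0.21. *Irf3* had 1640 in WT and 1773 in *Npffr1*-KO, a log2 ratio of 0.11 with an interval from 0.06 to 0.17. *Irf2* had 1362 in WT and 1321 in *Npffr1*-KO, and *Irf9* had 1272 and 1263. The log2 ratios of *Irf2* and *Irf9*, -0.04 and -0.01, had counting intervals on both sides of 0. The median log2 ratio was 0.05 over these 4 factors and 0.20 over *Irf4*, *Irf5* and *Irf8*. Centred on gene length, as described below, the medians were -0.002 and 0.199. Whether these groups differ was not tested, since there is 1 value per genotype.

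Grouped by their response to interferon, the factors showed no common direction. *Irf7*, the member most closely tied to type I interferon, had 637 normalized counts in WT and 652 in *Npffr1*-KO, a log2 ratio of 0.03 with a counting interval from -0.06 to 0.12. Among the 4 interferon-induced factors the log2 ratios ran from -0.01 for *Irf9* to 0.20 for *Irf8*, with a median of 0.10. Among the other 4 they ran from -0.04 for *Irf2* to 0.36 for *Irf5*, with a median of 0.11. Centred on gene length, the median was 0.022 for the interferon-induced factors, with 2 of 4 above 0, and 0.117 for the others, with 3 of 4 above 0. Over all 8 factors the median was 0.11, beside 0.008 over the 15309 genes, and 6 of the 8 were higher in *Npffr1*-KO, beside 51.2% of those genes.

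Sizes of this kind were common in the table. Of the 6322 genes with a mean from 500 to 2500 normalized counts, the range in which the 8 factors lie, 11.8% had a log2 ratio at least as far from 0 as that of *Irf5*. The shares were 36.7% for *Irf8*, 46.9% for *Irf1*, 60.7% for *Irf3* and 64.2% for *Irf4*. For *Irf2*, *Irf7* and *Irf9* they were 83.4% to 96.2%.

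The log2 ratios moved with gene length, with a Spearman rho of -0.38 across the 15309 genes, which share the same 6 libraries and are not independent replicates. After subtraction of the median ratio of genes in the same length class, *Irf4*, the longest of the 8, had 0.20, *Irf8* 0.20 and *Irf5* 0.29. *Irf1* came to 0.08 and *Irf3* to 0.04, and *Irf7* passed from above to below 0, at -0.05. *Irf2* and *Irf9* stayed below 0, at -0.08 and -0.04. The part of gene length in the ratios was not tested.

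**Figure D2:**
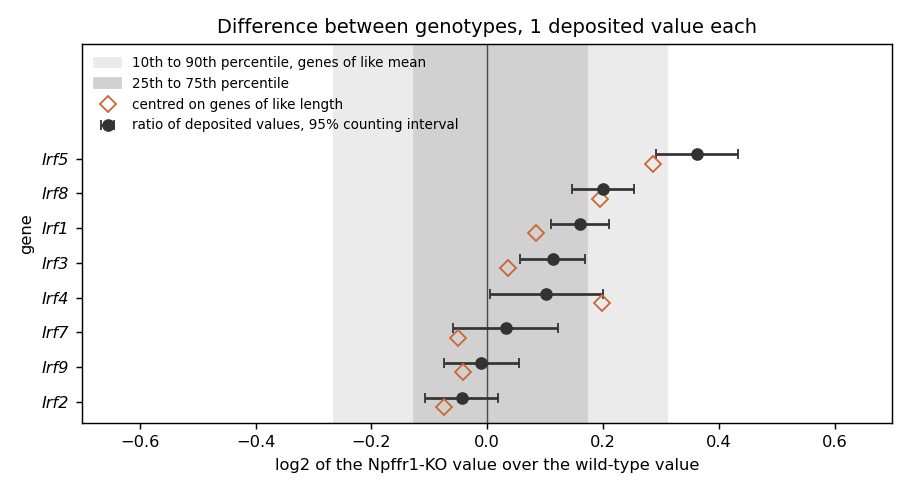
The log2 ratio of the *Npffr1*-KO to the WT value (horizontal axis) of each factor, with its 95% counting interval (black), and the same ratio centred on genes of like length (open diamonds). Grey bands give the middle of the uncentred ratios of the 6322 genes with a mean from 500 to 2500. The uncentred ratio of *Irf5*, 0.36, lies to the right of the outer band, which ends at 0.31, and the other 7 lie inside it.

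Part of the reads of some factors may belong to a neighbour. For neighbours on the opposite strand, no source used here says whether the counting used strand. In the GENCODE M21 annotation of the mouse build GRCm38, *Irf1* lies at chr11:53770014-53778374 on the plus strand and shares 135 exon bases with *Gm17334* on the minus strand. *Irf2*, at chr8:46739732-46847458, shares no exon base with another gene. *Irf5* lies at chr6:29526625-29541871 on the plus strand and shares 411 exon bases with *Tnpo3* on the minus strand. *Tnpo3*, which encodes a nuclear import receptor, had 2054 normalized counts in WT and 2213 in *Npffr1*-KO, a log2 ratio of 0.11. Of the 31-base runs in *Irf5* transcripts, 12.3% also occur in *Tnpo3* transcripts when both strands are read. *Irf3*, at chr7:44997648-45002848, shares 88 exon bases with *Bcl2l12* on the opposite strand, whose log2 ratio was 0.23. *Irf7*, at chr7:141262706-141266481 on the minus strand, shares 45 exon bases with *Phrf1*. *Irf9*, at chr14:55603571-55610030, shares 123 exon bases with *Rnf31* on the same strand. *Irf4*, at chr13:30749226-30766976, and *Irf8*, at chr8:120736358-120756694, share no exon base and no run of 31 bases with another annotated gene. No factor shared a run of 31 bases with another of the 8.

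The promoters were read for the sites through which interferons act. The letters GAAANNGAAA were taken for the ISRE, and TTCNNNGAA for the gamma-activated site (GAS), the element bound by STAT dimers, each on both strands. RefSeq gave 11 promoter windows for the 8 factors on GRCm38.p6, and the 250 bases before the start were searched. A match was found for *Irf1*, *Irf2* and *Irf8*, and each is shown with its surroundings because these are the factors whose own promoter carries such letters. Capitals mark the match, and the plus strand is printed.
*Irf1*, chr11:53769904-53769952: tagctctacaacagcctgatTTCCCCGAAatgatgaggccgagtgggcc
*Irf2*, chr8:46739495-46739549: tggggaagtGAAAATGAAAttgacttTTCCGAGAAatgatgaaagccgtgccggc
*Irf8*, chr8:120736167-120736233: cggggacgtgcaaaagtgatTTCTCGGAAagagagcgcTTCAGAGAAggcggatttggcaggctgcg

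In *Irf1* the GAS letters begin 90 bases before the start. *Irf8* has these letters at 171 and at 153 bases before the start. *Irf2* has the ISRE letters at 241 bases and the GAS letters at 224. Of all 32851 promoters of this length, 2.98% held the ISRE letters and 7.02% the GAS letters. In the windows of *Irf3*, *Irf4*, *Irf5*, *Irf7* and *Irf9* neither was found, which says only that these letters are not in those windows. The factors with a match had unlike log2 ratios, 0.16 for *Irf1*, -0.04 for *Irf2* and 0.20 for *Irf8*.

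The enzymes and adaptors that activate *Irf3*, *Irf5* and *Irf7* were all transcribed. *Tmem173*, which encodes STING, had 1388 normalized counts in WT and 1694 in *Npffr1*-KO, a log2 ratio of 0.29. *Irak1*, a kinase of Toll-like receptor signaling, had 3102 and 3018, and *Myd88*, the adaptor of these receptors, had 1283 and 1231. *Traf3*, an adaptor upstream of the kinases, had 1168 and 1149. Over the 10 genes the median log2 ratio was 0.035, or 0.097 centred on gene length, and 5 of 10 were higher in *Npffr1*-KO. Reads per library were known for 2 of them, and neither passed limma, where 0.0162% of 6187 genes were called higher and 0.0323% lower at an adjusted p under 0.05. Reads were known for 84.1% of the genes with a mean from 100 to 200 and for 63.4% of those from 200 to 400. At such means, genes that differ between libraries were less likely to have known reads.

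Transcripts of the interferons themselves were few. *Ifng*, made by T and NK cells, had 5.80, 5.87 and 13.9 normalized reads in the WT libraries and 19.3, 14.1 and 12.0 in the KO libraries. The groups overlapped, since the highest WT library lay above the lowest KO library. In limma its log2 difference was 0.84 ± 0.57 (SE, n = 3 and 3 libraries), with a Benjamini-Hochberg adjusted p of 0.576. *Ifne*, an interferon of epithelia, had a value of 2.29 in WT and 2.76 in *Npffr1*-KO, while *Ifnk* and *Ifna1* each had 1 read over all 6 libraries.

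Receptors and signal carriers of the interferon pathway lay on both sides of equality. *Jak1*, a kinase shared by the interferon receptors, had 5246 normalized counts in WT and 5602 in *Npffr1*-KO. *Ifngr1*, a chain of the interferon gamma receptor, had 4289 and 3929. *Ifnar1* and *Ifnar2*, the chains of the type I interferon receptor, had 3513 and 2643 in WT and 3491 and 2919 in *Npffr1*-KO. Over the 9 genes the median log2 ratio was 0.029, or 0.101 centred on gene length, with 5 of 9 higher in *Npffr1*-KO. *Stat2*, the partner of *Irf9* and named after its values were seen, had the lowest ratio of the list, with 1301 normalized counts in WT and 1042 in *Npffr1*-KO.

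Most genes for partners and cofactors of the factors had the higher value in *Npffr1*-KO. *Ikzf1*, a regulator of lymphocytes, had 1901 normalized counts in WT and 2485 in *Npffr1*-KO, a log2 ratio of 0.39. *Spib*, an Ets factor of B cells and plasmacytoid dendritic cells, had 1835 and 2143. The cofactors *Irf2bp2* and *Ep300* had 2044 and 1908 in WT and 1973 and 1690 in *Npffr1*-KO. *Spi1* and *Crebbp*, named after their values were seen, had log2 ratios of 0.31 and -0.24. The median log2 ratio of the 10 genes was 0.232, or 0.117 centred on gene length. Of the 10, 7 were higher in *Npffr1*-KO, beside 51.2% of the 15309 genes.

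*Batf*, which joins *Irf4* at composite sites in lymphocytes, was the gene with the lowest p-value of all lists and was named for that reason. It had 130, 129 and 164 normalized reads in the WT libraries and 175, 186 and 253 in the KO libraries. These reads were accepted with 0.0097 expected chance combinations, just under the limit of 0.01, and would not pass the stricter limit of 0.001. All 3 KO libraries lay above all 3 WT libraries, as they did for *Ccr9*, *Oas3* and *Usp18* among the 32 list genes tested. Of the 6187 genes, 7.92% had all KO libraries above all WT libraries and 9.68% had them below. Its log2 difference was 0.52 ± 0.19 (SE, n = 3 and 3 libraries), and it failed the correction, with a Benjamini-Hochberg adjusted p of 0.332 in limma.

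The type I interferon targets, which respond to *Irf3*, *Irf7* and *Irf9*, lay about evenly on both sides. *Bst2*, which tethers virus particles, had 1433 normalized counts in WT and 1647 in *Npffr1*-KO. *Ddx58*, which encodes the RNA sensor RIG-I, had 1483 and 1503. *Oasl2*, of the oligoadenylate synthetase family, had 849 and 730, and *Rtp4* had 797 and 695. Over the 20 genes the median log2 ratio was 0.027, or -0.013 centred on gene length, with 11 of 20 higher in *Npffr1*-KO, 4 of them at least 1.2-fold, and 1 at least 1.2-fold lower. Of the 15309 genes, 16.8% were at least 1.2-fold higher and 15.6% at least 1.2-fold lower.

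For 13 of these targets the reads of each library were known, and none passed limma. Targets that differ between libraries were less likely to have known reads, and limma found 16.9% of simulated 1.5-fold changes. *Ifi44*, a target named because it had the lowest p-value of the 13, had 207, 194 and 139 normalized reads in the WT libraries and 160, 108 and 132 in the KO libraries. The third WT library lay below the first KO library, so the groups overlapped. Its log2 difference was -0.43 ± 0.20 (SE, n = 3 and 3 libraries), with a Benjamini-Hochberg adjusted p of 0.446 in limma. Of the 13 differences, 8 were above 0.

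**Figure D3:**
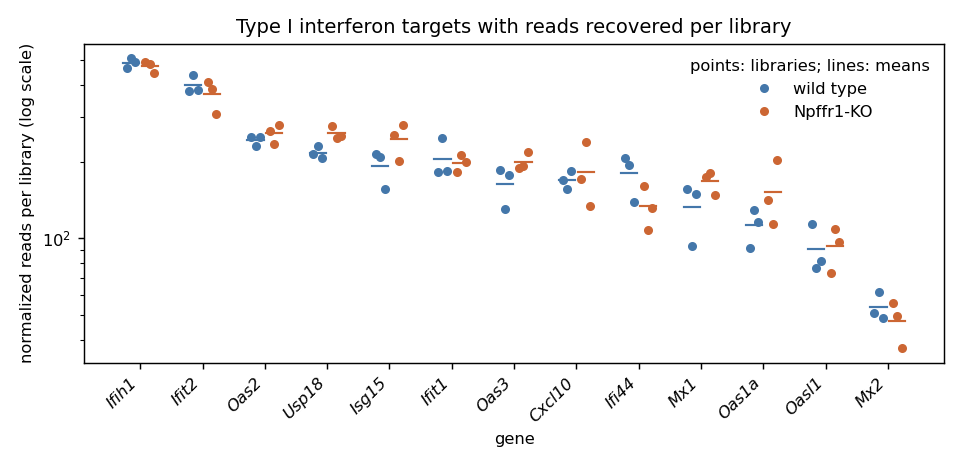
Normalized reads of each library (vertical axis, log scale) for the 13 type I interferon targets whose reads were recovered, with 3 wild-type libraries in blue, 3 *Npffr1*-KO libraries in orange and lines at the means. No gene passes the test, and the lowest adjusted p among them is 0.446, for *Ifi44*.

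Targets of *Irf1* and interferon gamma had log2 ratios from -0.64 to 0.69. *Tapbp* and *Tap1*, which load peptides on class I molecules, had 6355 and 2515 normalized counts in WT and 7049 and 2896 in *Npffr1*-KO. The immunoproteasome subunit *Psmb8* had 1709 in WT and 2449 in *Npffr1*-KO, a log2 ratio of 0.52. *Gbp2*, a guanylate-binding protein, had 1599 and 1808, while the ratios of *Gbp3*, *Gbp4*, *Gbp6* and *Gbp7*, of the same family and named after their values were seen, were below 1, from 0.792 to 0.979. The median over the 18 genes was 0.15, or 0.137 centred on gene length, and 10 of 18 were higher in *Npffr1*-KO. At least 1.2-fold higher were 5 of 18, beside 16.8% of the 15309 genes, and 2 were at least 1.2-fold lower, beside 15.6%. At the ends stood *Ciita*, the switch of class II genes, with a log2 ratio of 0.69, and *Iigp1*, a GTPase against vacuolar pathogens, with -0.64, both named after their values were seen.

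Of the 6 blood cell genes tied to *Irf4* and *Irf8*, 5 were higher in *Npffr1*-KO, beside 51.2% of the 15309 genes. At least 1.2-fold higher were 2 of 6, beside 16.8% of those genes, and 1 was at least 1.2-fold lower, beside 15.6%. *Ctss*, the protease cathepsin S, had 2226 normalized counts in WT and 2846 in *Npffr1*-KO. *Ncf1* and *Cybb*, parts of the phagocyte oxidase, had log2 ratios of 0.17 and 0.24. *Bcl6*, a repressor of germinal centre B cells that adipocytes also express, had 514 normalized counts in WT and 1085 in *Npffr1*-KO, a log2 ratio of 1.08. The median over the 6 genes was 0.24.

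The adipocyte genes linked to *Irf4* were unlike each other. The lipases *Pnpla2* and *Lipe*, which release fatty acids, had 34348 and 25413 normalized counts in WT and 31768 and 25885 in *Npffr1*-KO. *Ucp1*, the uncoupling protein of thermogenic fat, had 438 in WT and 1287 in *Npffr1*-KO. *Ppargc1a*, a transcriptional coactivator of the thermogenic program, had 136 and 241. The log2 ratio was 1.55 for *Ucp1* and 0.83 for *Ppargc1a*, beside 0.10 for *Irf4*.

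In bulk tissue, more cells of a type and more RNA per cell cannot be told apart, and markers of blood cells differed between the genotypes too. Of 10 T and NK cell markers 8 were at least 1.2-fold higher in *Npffr1*-KO, beside 16.8% of the 15309 genes. Their summed level was 8071 in WT and 12758 in *Npffr1*-KO, led by *Lck* and *Cd4*. The NK cell receptors on the list, named after their values were seen, did not have this direction, with 43.4 and 43.2 normalized counts for *Klrb1c* and 29.1 and 20.9 for *Ncr1*. Reads per library were known for these 2 receptors only, among the 10, and for none of the B cell markers. The other markers of both lists have 1 value per genotype, and their spread between libraries is not known. All 5 B cell markers analysed, led by *Cd79a* and *Cd79b*, were higher, with a sum of 8245 in WT and 9936 in *Npffr1*-KO and a median log2 ratio of 0.265, or 0.167 centred on gene length. The 7 macrophage markers, led by *Lyz2* and *Csf1r*, summed to 17634 and 20566, and their median was 0.06 with 4 of 7 higher. The 8 dendritic cell markers, led by *Itgax* and *Flt3*, summed to 1575 and 1686, with 5 of 8 higher and a median of 0.20. *Zbtb46*, *Clec9a* and *Xcr1*, named after their values were seen, were lower, with log2 ratios of -0.249, -0.182 and -0.035. Reads per library were known for 6 of the 8 dendritic cell markers, and none passed limma. None of these blood cell markers was at 0, and their part in the ratios of *Irf4*, *Irf5* and *Irf8* was not tested.

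*Cd209a*, a dendritic cell marker named because its p-value was the lowest among the markers, had 7.73, 12.7 and 35.7 normalized reads in the WT libraries and 37.6, 33.3 and 29.5 in the KO libraries. The groups overlapped through the third WT library. Its log2 difference was 1.07 ± 0.45 (SE, n = 3 and 3 libraries), with a Benjamini-Hochberg adjusted p of 0.391 in limma. It was 0.61 without WT library 1 and 1.65 without WT library 3.

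The tissue label was met by its markers, with *Fabp4* and *Adipoq* at 156285 and 37027 normalized counts in WT. The 6 adipocyte markers had a median log2 ratio of 0.162, or 0.062 centred on gene length. The 4 endothelial markers, led by *Cdh5* and *Pecam1*, were all lower in *Npffr1*-KO, with a sum of 51024 in WT and 40211 in *Npffr1*-KO. The 4 neutrophil and mast cell markers, led by the mast cell genes *Mcpt4* and *Cpa3*, were lower as well, with a sum of 2922 in WT and 1997 in *Npffr1*-KO. The neutrophil genes *S100a9* and *S100a8* were named after their values were seen, and their libraries overlapped between genotypes. *S100a9* had 95.6, 99.9 and 142 normalized reads in the WT libraries and 133, 65.6 and 87.3 in the KO libraries. Muscle transcripts such as *Acta1* and *Tnnt3* were few but higher in *Npffr1*-KO, and the 6 muscle and keratinocyte markers summed to 297 normalized counts in WT and 618 in *Npffr1*-KO. The keratinocyte genes *Krt5* and *Krt14*, named after their values were seen, added little to these sums. Their deposited values were 5.10 and 2.84 in WT and 5.28 and 3.38 in *Npffr1*-KO, but their reads lay mostly in single libraries. *Krt5* had 0, 0 and 11 reads in the WT libraries and 21, 0 and 0 in the KO libraries. *Krt14* had 0, 0 and 6 reads in the WT libraries and 11, 1 and 1 in the KO libraries.

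**Figure D4:**
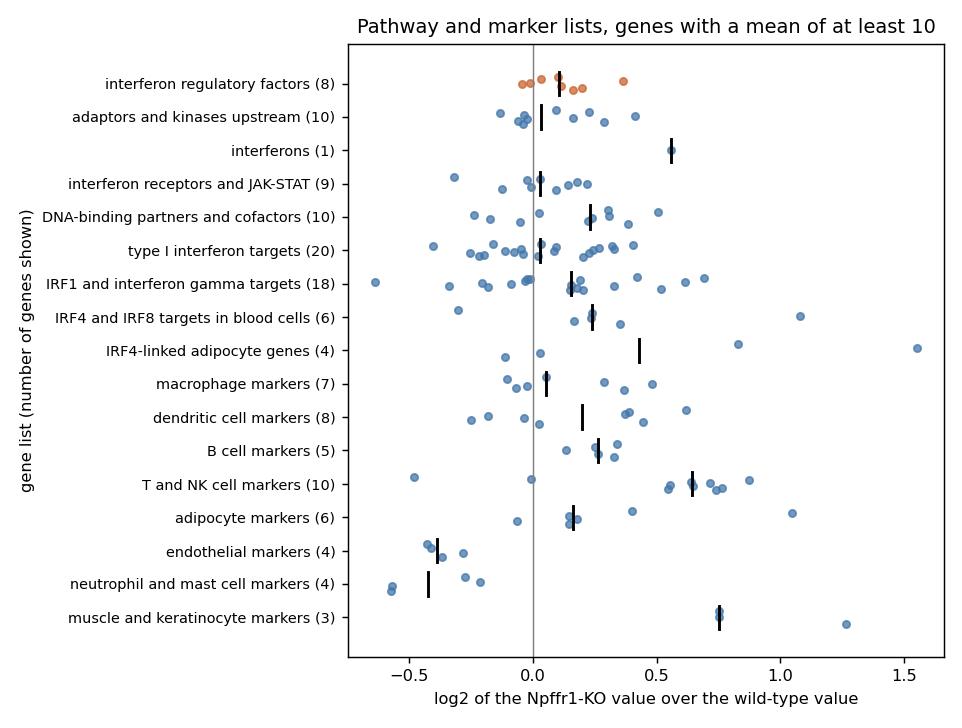
The log2 ratio of the *Npffr1*-KO to the WT value (horizontal axis) of each list gene averaging 10 or more normalized counts, with the factors in orange and black bars at the medians. The factors have a median of 0.11, the type I interferon targets 0.03, the B cell markers 0.27 and the T and NK cell markers 0.64.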

How the data were processed

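RNA of iAT from 3 WT and 3 *Npffr1*-KO samples of postnatal day 6 was analysed, with groups taken from the labels. The deposited expression columns hold a signal, made by the authors from read counts through normalization for library size, as 1 value per genotype. The submitters' processing notes name Bowtie2, RSEM and DESeq2, with the genome build not given in the sources used here. Columns with the authors' own fold changes, p-values and direction were not used, nor was a second table with a subset of the same rows. The factors, gene lists and tests were chosen with earlier results of these data known.

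The mean of both deposited values is a sum of whole reads divided by 6 size factors, which 585 genes with a single read show one by one. The factors ran from 0.9165 to 1.0377. The genotype of a library is that of the deposited column which its single reads raise, and libraries were not tied to sample numbers. For each gene with both values under 1000, whole reads were sought that give its mean to 15 significant digits and the ratio of both values. They were accepted when fewer than 0.01 such combinations were expected by chance. The form of this limit was settled after first results of the search had been seen. Reads were recovered for 54.0% of the genes, from at least 96.4% in each class of mean under 100 down to 22.5% from 400 to 1000, and the search takes the combination nearest to an even split over the libraries. The expected number of chance combinations grows with the distance from that even split. At higher means, genes that differ between libraries were therefore less likely to be accepted. Shares over the genes tested in limma describe accepted genes only. The search and the test below were tested on simulated data. There limma found 16.9% of the 1.5-fold changes, 60.6% of the 2-fold changes and 90.3% of the 3-fold changes. Not passing limma therefore does not show that a gene was unchanged. For the 8 factors the deposited log2 ratio is about 0.976 to 0.984 times that of the reads. Counting intervals take the reads behind a value as the value times the summed size factors of its 3 libraries (Poisson, 95%).

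Recovered reads were divided by the size factor and tested in limma 3.58.1 (R 4.3.3) on log2(value + 1) with eBayes and trend, for 6187 genes averaging 10 or more, adjusted over all of them by the Benjamini-Hochberg method. No source says whether samples were separate animals, so p-values measure the spread between these libraries. Named are the 8 factors, up to 4 genes of each pathway list and 2 of each marker list by their mean, and others where stated. One B cell marker is not reported here. Of the 8 interferons on the list, *Ifnb1*, *Ifna2*, *Ifna4* and *Ifna5* were sought by symbol and not found among the 19831 genes, so they have no values here. Python 3.11.15 was used for the remaining steps. Alternatives changed the pseudocount, the minimum mean, the scaling, the centring on 20 classes of gene length, the trend, the recovery limit and the libraries.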

Additional observations from a re-analysis of the deposited data

How the results depend on the processing

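The median log2 ratio of the 8 factors, 0.107, ran from 0.060 after centring within 20 classes of gene length to 0.113 under the other alternatives. The ratios of single factors moved by more than their counting interval in 3 of 56 cases, those of *Irf1*, *Irf3* and *Irf5* under the length centring. The other alternatives could hardly move a ratio. The minimum means lie far below the values of the factors, and the pseudocounts and scalings shift their ratios only slightly. The level percentiles of single factors moved by more than their counting interval in 21 of 24 cases, such as *Irf4* from 60.1 to 48.3 among genes of at least 10 in WT and *Irf7* from 63.5 to 73.7 per length. The median WT percentile of the factors, 79.4, was 78.9 with the KO value, 73.3 among genes of at least 10 in WT and 82.2 per length. In limma, 1 gene was called higher (*Gm3317*) and 2 lower (*Duxbl2* and *Duxbl3*, near-identical copies with the same reads here). 690 of 6187 genes had an unadjusted p under 0.05. A pseudocount of 0.1, eBayes without trend, the stricter recovery and, added after seeing the data, a mean from 10 to 100 each left 0 higher and 0 lower. A minimum mean of 25 left 0 higher, and no minimum left 0 lower. Leaving out 1 library in turn gave 0 to 3 higher and 0 to 8 lower. Without KO library 1 there were 0 and 0, without KO library 2 there were 1 and 7, without KO library 3 there were 3 and 8, and without WT library 2 there were 2 and 0. Without WT library 1 or WT library 3 there were 1 and 0. The differences of *Batf*, *Ifi44*, *Cd209a* and *Ifng* kept their direction and stayed above the threshold in the 59 alternatives run, with ranges over left-out libraries of 0.361 to 0.634, -0.601 to -0.285, 0.611 to 1.65 and 0.648 to 1.21, and the cause of the moved counts was not tested. The factors could not be recomputed without a library, with the stricter recovery or without the trend, since they have 1 value per genotype. No paired analysis was possible because the libraries could not be tied to the replicate numbers of the labels. At means of 50 to 100 the median SD between libraries was 0.31 on the log2 scale, so that small differences of single genes were not detectable.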
